A study of Mus musculus with 28 samples.

Results

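The 40 genes described here encode proteins of the cell division cycle. They were taken by gene symbol from the 40481 mouse genes of the count table. They comprise 5 G1 cyclins and inhibitors of cyclin-dependent kinases (Ccnd1, Ccne1, Ccne2, Cdkn1a, Cdkn1b), 10 genes of DNA replication and nucleotide supply (Mcm2 to Mcm7, Pcna, Rrm1, Rrm2, Tyms), and 4 genes for the mitotic cyclins and their kinase (Ccna2, Ccnb1, Ccnb2, Cdk1). The others are 8 genes of the mitotic kinases, the spindle checkpoint and anaphase (Bub1, Bub1b, Aurka, Aurkb, Birc5, Plk1, Cdc20, Ube2c), 3 centromere genes (Cenpa, Cenpe, Cenpf), 6 genes of the spindle and cytokinesis (Kif11, Kif23, Kif20a, Tpx2, Nusap1, Prc1), and 4 genes of chromatin and other functions that are used as marks of proliferation (Mki67, Top2a, Hmgb2, Stmn1). All 40 passed the filter on low counts in microglia and in astrocytes.

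RNA was sequenced from microglia, sorted with an antibody against CD11b, and from astrocytes, sorted with an antibody against ACSA-2, of the cortex, hippocampus and thalamus of single mice. Every mouse was homozygous for APOE4fl/fl, a human APOE4 gene flanked by loxP sites, and tamoxifen (2 injections of 100 mg/kg) was given to every mouse when it was 3.8 months old, with cells sorted 10 days afterwards. The labels give no strain. The APPPS1 transgene, which is driven by a neuronal promoter and produces amyloid plaques, defines the amyloid comparison, and ALDH1L1-CreERT, a tamoxifen-dependent Cre recombinase driven by the promoter of an astrocyte gene, defines the Cre comparison, in which the controls had no Cre but did have tamoxifen. After mouse 459 was left out, each sort held 2 APOE4fl/fl mice (amyloid-free, Cre-negative), 2 APOE4fl/fl::ALDH1L1-CreERT mice (amyloid-free, Cre-positive), 5 APPPS1::APOE4fl/fl mice (Cre-negative) and 4 APPPS1::APOE4fl/fl::ALDH1L1-CreERT mice (Cre-positive), 13 libraries in all. Each mouse gave 1 library per sort and is the replicate, so p-values measure the spread between mice.

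A dividing cell copies its DNA in S phase and separates the copies in mitosis. Cyclins switch on their partner kinases in a fixed order, and inhibitors such as p27, the product of Cdkn1b, hold those kinases back in resting cells. Genes needed for replication are classically controlled through E2F sites, and genes needed for mitosis through a later programme that reads CCAAT boxes and an element called the CHR. Microglia are long-lived cells that renew themselves by local division in the adult brain, and dividing microglia are known around amyloid plaques. Mature astrocytes rarely divide.

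Mouse gene counts per library ran from 26139519 to 59165002. Both libraries of mouse 459, labelled APPPS1 and Cre-positive, held genes of the other sort, with the microglial gene P2ry12 at 15.9 CPM (counts scaled to a common total of mouse gene counts) in the library labelled microglia and 7290 CPM in that labelled astrocyte, and were left out. Human APOE, the gene that Cre removes in astrocytes, ranged from 507 to 926 CPM in 6 Cre-positive and from 1052 to 1864 CPM in 7 Cre-negative astrocyte libraries. The summed level of 10 microglial markers lay between 32401 and 39781 CPM in 12 of the 13 microglia libraries and was 16828 CPM in that of mouse 26, an amyloid-free Cre-positive animal. The same library had the highest sums of endothelial (346 CPM), lymphocyte (46.1 CPM) and monocyte and neutrophil markers (7327 CPM).

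Promoters are shown for 1 gene of each role but the spindle genes, since replication and mitotic genes are known for different promoter elements. RefSeq windows on GRCm38.p6, from 250 bases before to 50 after the transcription start, matched 32 of the 40 genes with 35 windows. Searched on both strands were the CHR (TTTGAA or TTTAAA), the CCAAT box (CCAAT) and an E2F site core (TTGGCGC or TTCCCGC). A CHR was present in 68.6% of the members' windows and in 27.6% of the 32851 windows of the table, a CCAAT box in 82.9% against 37.4%, and an E2F core in 25.7% against 6.8%. Among the mitotic members a CHR was present in 90.0% of 20 windows and an E2F core in 15.0%. Among the replication members a CHR was present in 30.0% of 10 windows and an E2F core in 60.0%. The CCAAT box did not separate these classes, with 90.0% of windows in each. Each run below covers the 250 bases before the start and the 30 bases after it, 5′ to 3′ on the strand of the gene, with matches in capitals. A match is a description of the letters and not evidence of binding.
Cdkn1b, the inhibitor that fell, chr6:134920151-134920430, plus strand: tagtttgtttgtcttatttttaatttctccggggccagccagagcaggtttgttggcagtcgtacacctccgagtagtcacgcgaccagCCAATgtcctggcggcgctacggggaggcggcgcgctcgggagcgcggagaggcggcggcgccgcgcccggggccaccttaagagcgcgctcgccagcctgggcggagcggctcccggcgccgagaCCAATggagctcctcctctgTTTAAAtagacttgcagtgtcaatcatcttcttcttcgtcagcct
Rrm2, a replication gene, chr12:24708004-24708283, plus strand: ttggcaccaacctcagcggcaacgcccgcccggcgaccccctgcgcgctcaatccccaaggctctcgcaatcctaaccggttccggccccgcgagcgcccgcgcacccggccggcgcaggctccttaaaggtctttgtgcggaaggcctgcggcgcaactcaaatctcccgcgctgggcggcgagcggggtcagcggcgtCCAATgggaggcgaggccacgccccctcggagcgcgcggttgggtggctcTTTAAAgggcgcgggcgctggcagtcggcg
Cdk1, the mitotic kinase, chr10:69352883-69353162, minus strand: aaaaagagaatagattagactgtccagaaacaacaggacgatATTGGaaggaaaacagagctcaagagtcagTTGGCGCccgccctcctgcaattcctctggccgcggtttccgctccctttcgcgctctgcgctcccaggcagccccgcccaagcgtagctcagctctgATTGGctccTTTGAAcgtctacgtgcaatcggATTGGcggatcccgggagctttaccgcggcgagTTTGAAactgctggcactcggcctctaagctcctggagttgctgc
Birc5, of the kinase and checkpoint group, chr11:117848987-117849266, plus strand: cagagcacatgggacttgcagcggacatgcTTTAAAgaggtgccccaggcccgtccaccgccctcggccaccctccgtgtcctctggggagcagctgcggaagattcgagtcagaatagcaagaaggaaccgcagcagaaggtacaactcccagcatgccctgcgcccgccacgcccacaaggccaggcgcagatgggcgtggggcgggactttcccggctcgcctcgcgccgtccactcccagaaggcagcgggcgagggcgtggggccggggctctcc
Cenpe, a centromere gene, chr3:135212313-135212592, plus strand: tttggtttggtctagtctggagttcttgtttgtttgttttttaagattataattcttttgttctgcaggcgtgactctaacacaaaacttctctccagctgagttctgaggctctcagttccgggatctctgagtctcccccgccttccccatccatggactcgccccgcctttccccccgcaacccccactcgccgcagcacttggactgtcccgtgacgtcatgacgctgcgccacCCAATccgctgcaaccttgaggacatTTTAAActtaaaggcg
Top2a, a proliferation gene, chr11:99024160-99024439, minus strand: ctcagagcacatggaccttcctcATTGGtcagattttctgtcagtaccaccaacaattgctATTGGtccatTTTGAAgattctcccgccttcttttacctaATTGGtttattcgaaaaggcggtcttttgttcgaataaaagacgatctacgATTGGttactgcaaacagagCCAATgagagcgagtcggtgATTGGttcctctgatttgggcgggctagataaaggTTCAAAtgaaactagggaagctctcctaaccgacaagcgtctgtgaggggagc
The Cdk1 run held 2 CHR matches, 3 CCAAT boxes and 1 E2F core, and the Top2a run held 2 CHR matches and 6 CCAAT boxes. The CHR matches nearest the start began at position -15 in Cdk1 and -23 in Top2a, counted from the transcription start. The Birc5 run held 1 CHR match, at -220, and no CCAAT box. The Rrm2 run held 1 CHR match, 1 CCAAT box and 0 E2F cores. It thus lacked the core that was present in 60.0% of the replication windows. Of the spindle genes not printed, the window of Nusap1 held none of these letters, and both windows of Prc1 held 1 CHR and 1 CCAAT box.

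Microglia of APPPS1 mice had higher levels of genes for DNA replication and mitosis than microglia of amyloid-free mice. Averaged over Cre status, 30 of the 40 genes were higher and 1, Cdkn1b, was lower, at an adjusted p under 0.05 by edgeR's quasi-likelihood test with Benjamini-Hochberg adjustment over 17593 genes. Of all genes tested, 6.06% were higher and 3.52% lower. The median log2 fold change of the 40 was 1.76, against -0.05 for all genes, and 38 of the 40 were above 0, as were 45.9% of all genes. The rise was found in all 4 genes of the mitotic cyclins and their kinase, 9 of 10 replication genes, 3 of 3 centromere genes, 5 of 6 spindle genes, 5 of 8 kinase and checkpoint genes, 3 of 4 proliferation genes and 1 of 5 G1 genes.

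**Figure D1:**
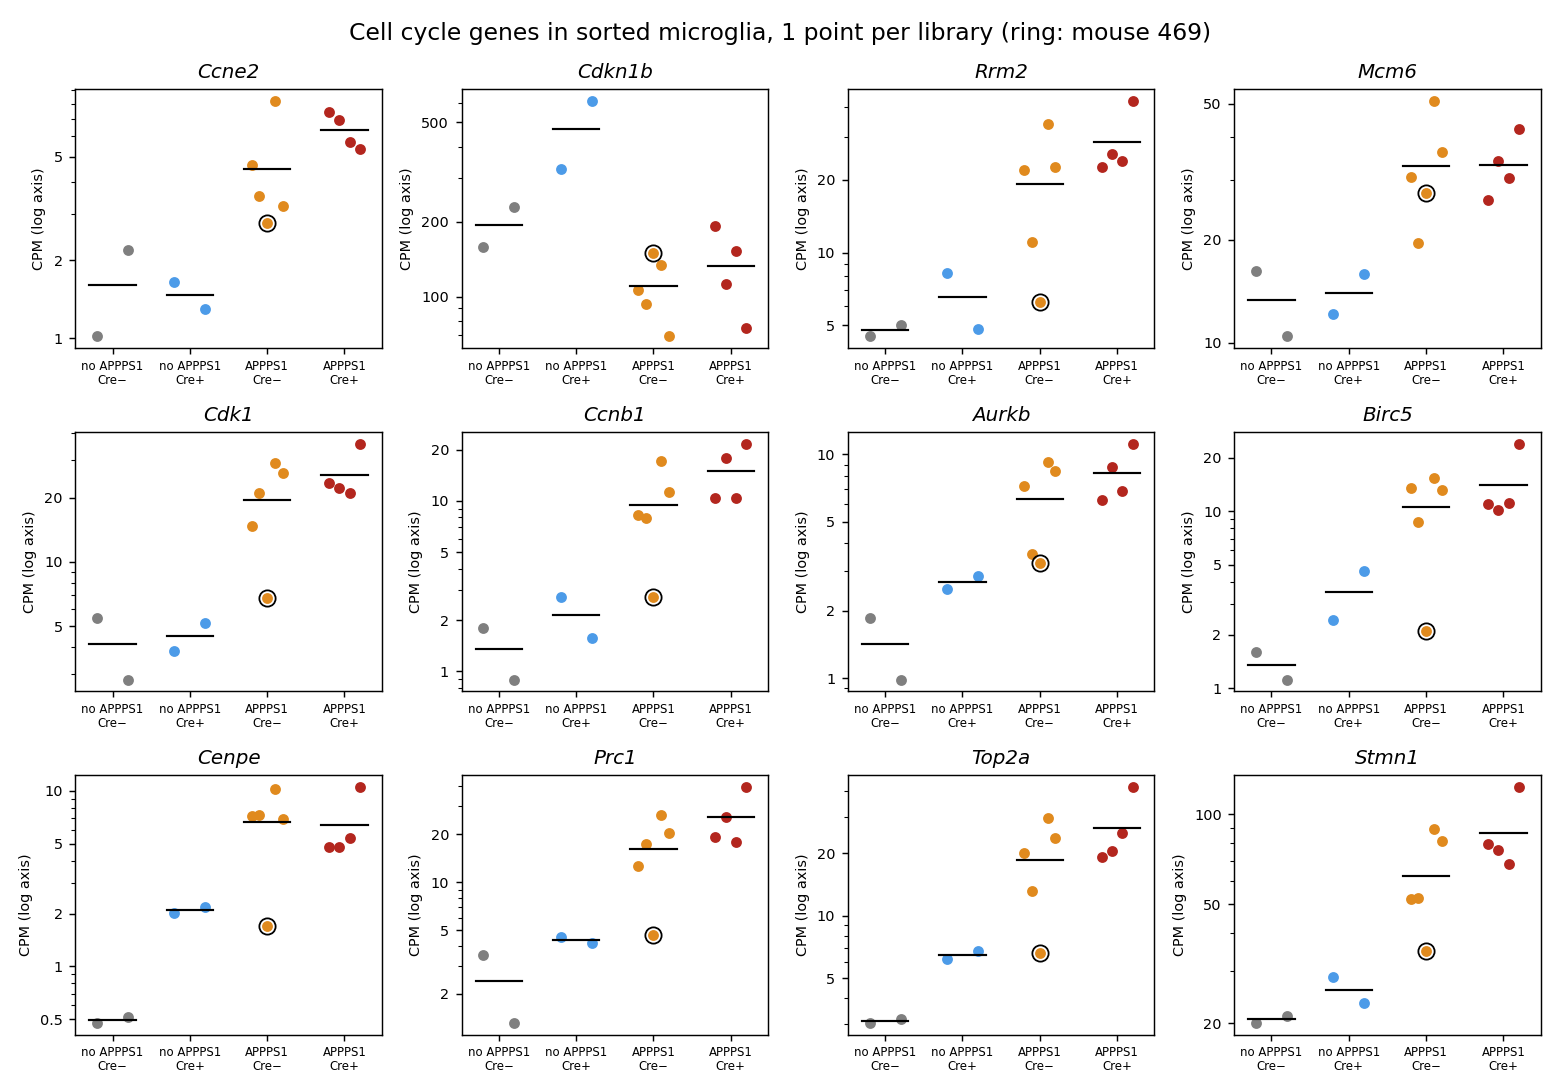
Level of 12 cell cycle genes in each of the 13 microglia libraries, in CPM on a log axis, by genotype group, with a line at each group mean and a ring around the library of mouse 469. Except for Cdkn1b, which is lowest in APPPS1 libraries, most APPPS1 points lie above the amyloid-free points, and the ringed library is the lowest of the APPPS1 points in every panel but those of Cdkn1b and Mcm6.

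Cdk1, the kinase that drives entry into mitosis, stood at 5.48 and 2.82 CPM in Cre-negative controls and at 3.85 and 5.16 CPM in Cre-positive controls, both amyloid-free. In Cre-negative APPPS1 microglia it was 14.7, 21.0, 6.76, 29.0 and 26.0 CPM, and in Cre-positive APPPS1 microglia 23.4, 22.2, 21.1 and 35.7 CPM. Every APPPS1 library was above every amyloid-free one, and the lowest of them, at 6.76 CPM, came from mouse 469. The fold change was 5.16 (95% interval 3.07 to 8.70, log2 2.37 ± 0.35 SE, edgeR adjusted p = 0.00227). Its activating partner Ccnb1, cyclin B1, had the largest rise of the 40 genes. It was 1.81, 0.894, 2.73 and 1.57 CPM in amyloid-free microglia and ran from 2.74 to 21.6 CPM in APPPS1 microglia, with a median of 10.4. Here too the groups did not overlap, although the highest amyloid-free library (2.73 CPM) and the lowest APPPS1 library (2.74 CPM) were nearly level. Ccnb1 rose 6.98-fold (log2 2.80 ± 0.44, edgeR adjusted p = 0.00282), Ccnb2, cyclin B2, by log2 2.31 ± 0.40 and Ccna2, cyclin A2, which acts from S phase into mitosis, by log2 1.73 ± 0.34.

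Among the kinases and regulators of the checkpoint, Aurkb and Birc5 encode the kinase and the survivin subunit of the chromosomal passenger complex, which corrects the attachment of chromosomes to the spindle. Aurkb was 1.85, 0.984, 2.51 and 2.87 CPM in amyloid-free microglia and ran from 3.27 to 11.2 CPM, with a median of 7.23, in APPPS1 microglia. The groups did not overlap, and Aurkb rose by log2 1.89 ± 0.33 (edgeR adjusted p = 0.00524). Birc5 was 1.60, 1.12, 2.42 and 4.62 CPM without amyloid and ran from 2.12 to 24.0 CPM, with a median of 11.2, with it. Only the APPPS1 library of mouse 469 lay within the amyloid-free range, and Birc5 rose by log2 2.48 ± 0.46 (edgeR adjusted p = 0.00694). The polo kinase Plk1 (log2 2.44 ± 0.54), the ubiquitin enzyme of the anaphase-promoting complex Ube2c (2.48 ± 0.50) and the spindle kinase Aurka (1.98 ± 0.51) also rose. The checkpoint genes Bub1 (log2 1.93 ± 0.74, edgeR adjusted p = 0.111) and Bub1b (1.31 ± 0.51, 0.111) and the anaphase activator Cdc20 (1.36 ± 0.51, 0.102) did not pass, and had standard errors of at least 0.51.

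Cenpe, a motor that carries chromosomes to the middle of the spindle, was the centromere gene with the largest change. It was 0.478 and 0.514 CPM in Cre-negative controls, 2.01 and 2.19 CPM in Cre-positive controls, and from 1.71 to 10.5 CPM, with a median of 6.93, in APPPS1 microglia. The Cre-negative controls lay far below all other libraries, and mouse 469 was the one APPPS1 library within the amyloid-free range. Cenpe rose by log2 2.67 ± 0.42 (edgeR adjusted p = 0.00282). Cenpf, a large kinetochore protein, was 2.39, 2.37, 2.86 and 2.63 CPM without amyloid and ran from 2.84 to 13.2 CPM, with a median of 6.14, with it, and rose by log2 1.405 ± 0.34 (edgeR adjusted p = 0.023). Cenpa, the histone variant that marks the centromere, rose by log2 1.05 ± 0.29 (edgeR adjusted p = 0.0367).

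Of the spindle genes, Prc1, which bundles the midzone microtubules at the end of mitosis, was 3.53, 1.32, 4.51 and 4.14 CPM in amyloid-free microglia. In APPPS1 microglia it ran from 4.67 CPM, in mouse 469, to 39.4 CPM, in mouse 475, with a median of 19.3. The groups did not overlap, and the rise was log2 2.65 ± 0.42 (edgeR adjusted p = 0.00309). Nusap1, a spindle assembly protein, was 3.30, 1.72, 3.47 and 4.41 CPM without amyloid and ran from 3.06 to 21.1 CPM, with a median of 13.04, with it (log2 2.08 ± 0.39, edgeR adjusted p = 0.00777). Again only the library of mouse 469 overlapped the amyloid-free range. The kinesins Kif20a (log2 2.31 ± 0.45) and Kif11 (1.82 ± 0.49) and the microtubule nucleator Tpx2 (1.87 ± 0.50) rose, while the kinesin Kif23 did not pass (0.65 ± 0.27, edgeR adjusted p = 0.14). Nusap1 overlaps Oip5 and Prc1 overlaps Rccd1 on the opposite strand, as Cdc20 does Elovl1, Ccna2 does Exosc9, Ube2c does Tnnc2, Ccne2 does Ints8, Kif20a does Cdc23, and Mcm7 does Cops6 and Ap4m1. Ccnd1 overlaps LTO1 in the same way. Whether counting used strand is not stated in the labels, so reads shared by such pairs cannot be told apart.

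**Figure D2:**
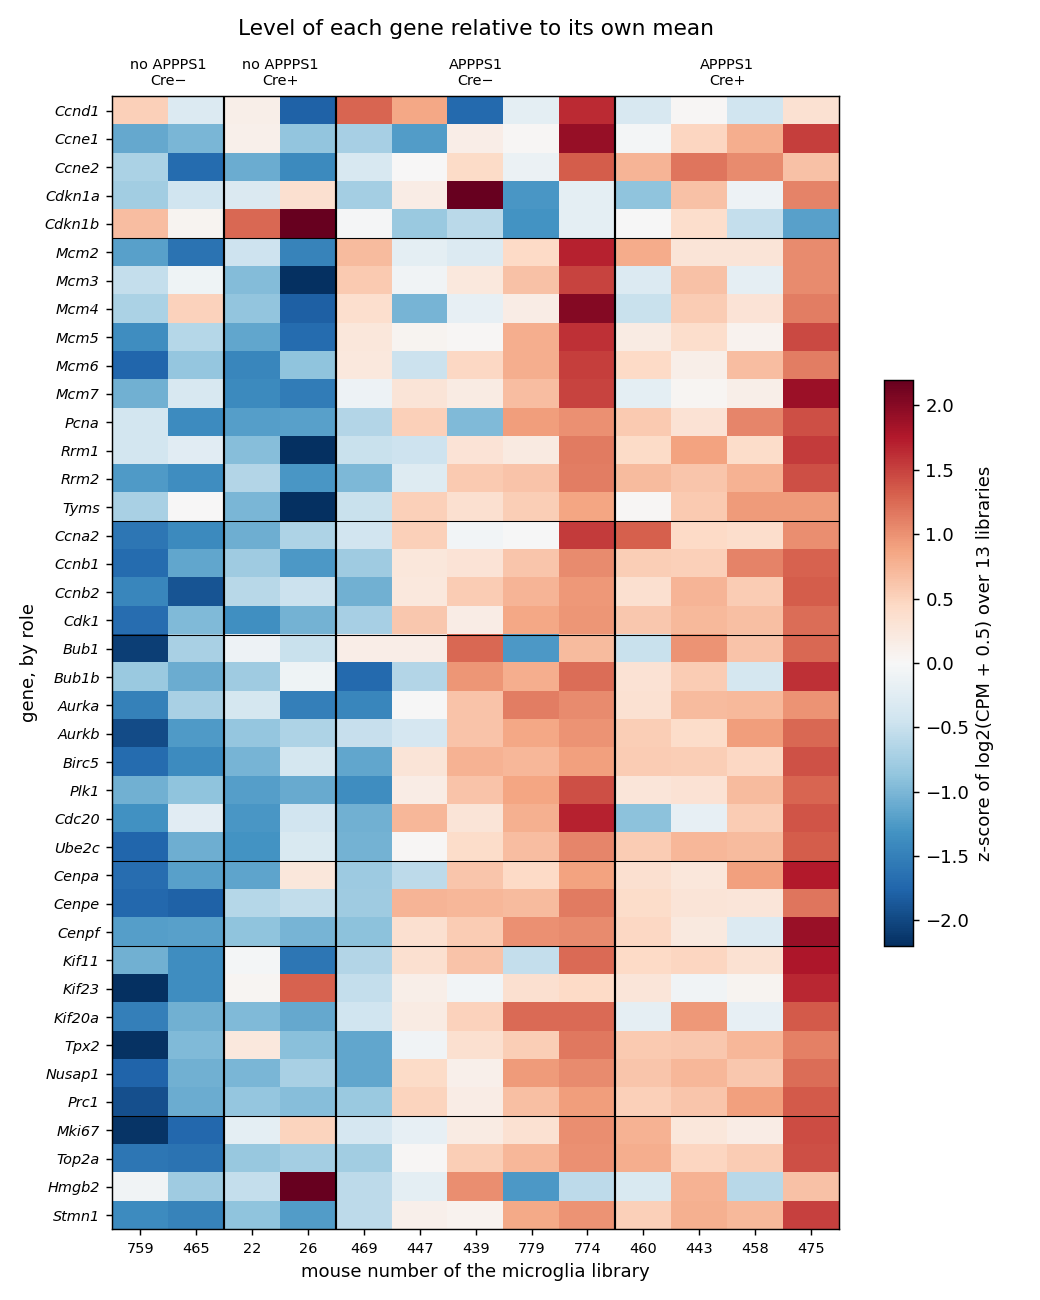
Level of each of the 40 genes in each microglia library relative to the mean of that gene, as a z-score of log2(CPM + 0.5) over 13 libraries, with genes in rows by role and libraries in columns by group and, within a group, by the summed level of the mitotic genes. Rows of replication and mitotic genes shift from blue in the 4 amyloid-free libraries to red in most APPPS1 libraries, mouse 469 stays blue in most mitotic rows, and Cdkn1b runs the other way.

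Replication genes rose too, by smaller steps. Their median log2 fold change was 0.90, against 2.34 for the mitotic cyclins and Cdk1. Rrm2, the regulated subunit of the enzyme that makes deoxynucleotides, was 4.51, 5.03, 8.20 and 4.86 CPM in amyloid-free microglia and ran from 6.26 to 42.4 CPM, with a median of 22.7, in APPPS1 microglia. Mouse 469 again gave the lowest APPPS1 value and the only one in the amyloid-free range, and Rrm2 rose by log2 2.07 ± 0.38 (edgeR adjusted p = 0.00678). Mcm6, a subunit of the helicase that unwinds DNA at replication forks, was 16.2, 10.4, 12.1 and 15.9 CPM without amyloid and ran from 19.6 to 51.1 CPM, with a median of 30.5, with it. Its groups did not overlap (log2 1.28 ± 0.24, edgeR adjusted p = 0.00686). The other helicase subunits rose by log2 1.85 ± 0.35 (Mcm5), 1.68 ± 0.34 (Mcm2), 0.83 ± 0.21 (Mcm7) and 0.62 ± 0.17 (Mcm3), and Mcm4 did not pass (0.39 ± 0.18, edgeR adjusted p = 0.194). The sliding clamp Pcna (0.56 ± 0.15), the constant reductase subunit Rrm1 (0.57 ± 0.15) and the thymidylate synthase Tyms (0.96 ± 0.21) rose as well.

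The G1 genes divided. Ccne2, cyclin E2, which starts S phase, was 1.02, 2.19, 1.65 and 1.30 CPM in amyloid-free microglia and ran from 2.79 to 8.23 CPM, with a median of 5.38, in APPPS1 microglia. Its groups did not overlap, and it rose 3.47-fold (log2 1.79 ± 0.32, edgeR adjusted p = 0.00629). Cdkn1b, which encodes the inhibitor p27, was 159 and 229 CPM in Cre-negative controls, 325 and 612 CPM in Cre-positive controls, and from 69.2 to 192 CPM, with a median of 112, in APPPS1 microglia. The groups met between 159 and 192 CPM, and Cdkn1b fell to 0.402 of the amyloid-free level (95% interval 0.280 to 0.577, log2 -1.32 ± 0.24, edgeR adjusted p = 0.00718). Without mouse 26, whose 612 CPM was the highest, or without mouse 759 it did not pass (highest edgeR adjusted p = 0.0537). Cdkn1a, the p21 inhibitor, ran from 57.1 to 75.2 CPM without amyloid and from 50.4 to 127 CPM, with a median of 67.0, with it (log2 0.20 ± 0.21, edgeR adjusted p = 0.585). Ccnd1, cyclin D1, ran from 16.9 to 31.1 CPM and from 17.2 to 41.7 CPM, with a median of 27.2 in the latter (log2 0.20 ± 0.21, edgeR adjusted p = 0.579). The Ccne1 estimate was 2.03 ± 0.77 (edgeR adjusted p = 0.106), at 0.827 CPM on average in APPPS1 microglia.

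Top2a, the topoisomerase that untangles copied chromosomes, was 3.05, 3.17, 6.22 and 6.77 CPM in amyloid-free microglia and ran from 6.62 to 41.7 CPM, with a median of 20.4, in APPPS1 microglia (log2 2.31 ± 0.35, edgeR adjusted p = 0.00265). Mouse 469, at 6.62 CPM, was the only APPPS1 library below the highest control. Stmn1, stathmin, which takes microtubules apart, was 20.1, 21.2, 28.6 and 23.4 CPM without amyloid and ran from 34.8 to 123 CPM, with a median of 75.8, with it. All 9 APPPS1 libraries exceeded all 4 controls, and Stmn1 had the lowest p of the 40 genes (log2 1.66 ± 0.25, edgeR adjusted p = 0.00222). Mki67, the Ki-67 antigen of cycling cells, rose by log2 1.72 ± 0.36 (edgeR adjusted p = 0.0114). Hmgb2, a chromatin protein, was not called (-0.22 ± 0.23, edgeR adjusted p = 0.575), and its estimate turned to 0.23 without mouse 26, where it was highest at 177 CPM. Per kilobase of exon, the most abundant of the 40 genes in APPPS1 microglia were Stmn1 (38.0 CPM per kilobase) and Pcna (35.8), whereas in amyloid-free microglia Cdkn1b led with 72.8 CPM per kilobase.

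In 12 of the 40 genes every APPPS1 microglia library lay above every amyloid-free one, as in 2.76% of all genes tested. These were Ccne2, Mcm2, Mcm5, Mcm6, Mcm7, Ccna2, Ccnb1, Cdk1, Aurkb, Kif20a, Prc1 and Stmn1. In 0 of the 40 did every APPPS1 library lie below, as in 1.26% of all genes. Leaving out a mouse changes the power of the test for every gene. The counts that follow come without a share of all genes and need not be particular to the 40. When each mouse was left out in turn, between 14 genes (without mouse 759, an amyloid-free Cre-negative animal) and 33 genes (without mouse 469) were called. A set of 13 of the 31 was called in all 13 of these fits, namely Ccne2, Mcm6, Rrm2, Ccnb1, Ccnb2, Cdk1, Aurkb, Birc5, Cenpe, Nusap1, Prc1, Top2a and Stmn1. Without mouse 26 the count was 18.

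Markers of other cells moved with amyloid in the same libraries. The sum of 8 endothelial markers ran from 63.7 to 346 CPM in amyloid-free and from 32.2 to 92.0 CPM in APPPS1 microglia, and 5 of the 8 were lower. The sum of 10 astrocyte markers ran from 214 to 367 CPM and from 126 to 225 CPM, with 4 of the 10 lower and Gfap higher. The sum of 8 monocyte and neutrophil markers ran from 1465 to 7327 CPM and from 237 to 6301 CPM. Of these 8, Ccr2 was lower. The sum of 8 neuron markers ran from 10.3 to 26.9 CPM and from 2.75 to 9.24 CPM, without overlap, and 2 of the 8 were lower. The sum of 8 markers of oligodendrocyte precursors went the other way, from 0.636 to 2.49 CPM and from 2.08 to 11.8 CPM, with Cspg4 higher. Among APPPS1 microglia that sum was highest in mice 774 (11.8 CPM), 475 (9.29 CPM) and 779 (9.26 CPM), which also had the highest sums of mitotic genes, and lowest in mouse 469 (2.08 CPM). Its part in the result was not tested. The sum of 10 microglial markers ran from 16828 to 39781 CPM and from 32895 to 39658 CPM, with 4 of the 10 higher, and that of 9 neural progenitor markers did not exceed 4.63 CPM in any library. With the mean level of astrocyte, endothelial and oligodendrocyte markers as a covariate, 0 of the 40 genes passed (edgeR), as did 0.0114% of all genes, while their median log2 fold change was 1.52. With the monocyte and neutrophil markers as the covariate, an alternative added after the data were seen, 11 passed, as did 0.904% of all genes, and the median was 1.45. In bulk samples more dividing cells and more of these transcripts per cell cannot be told apart.

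The other genes of the same pathways were taken from 6 lists with 108 tested members. In the same microglia comparison 6.06% of all genes were higher and 3.52% lower. Of 22 genes of origin licensing and the replication fork, 13 were higher and 0 lower, among them the licensing factor Cdc6 (log2 3.17 ± 0.60), the primase subunit Prim1 (1.25 ± 0.24) and the polymerase subunit Pole (2.62 ± 0.62). Of 20 genes of the kinetochore, condensin and chromosome separation, 10 were higher and 0 lower, with Nuf2 (2.45 ± 0.32), Spc25 (2.43 ± 0.34) and Knl1 (4.52 ± 0.65), all parts of the microtubule-binding network of the kinetochore. Of 20 further spindle and cytokinesis genes, 13 were higher and 0 lower, with the centrosome kinase Nek2 (4.71 ± 0.57), Cdca3 (2.56 ± 0.43) and the chromosome motor Kif22 (1.96 ± 0.34). Of 19 genes of the E2F factors, the RB family and the DREAM complex, 0 passed in either direction by edgeR (9.58% of all genes), with 4 at an unadjusted p under 0.05 (27.2% of all genes) and a median of 0.09. The lowest p in that list were those of Lin37 (0.28), Rb1 (-0.53) and E2f1 (0.99). Of 16 further G1 genes, 4 were higher, including the phosphatase Cdc25c (4.09 ± 0.76) and the kinase Cdk4 (0.68 ± 0.13), and 1, the cyclin Ccnd2, was lower (-1.44 ± 0.29). Of 11 tested genes of the p53 response, 0 were higher and 2 lower, the growth arrest gene Gadd45a (-1.76 ± 0.34) and the kinase Plk2 (-1.07 ± 0.22), while the p53 ligase Mdm2 did not pass (-0.38).

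The summed level of the 23 mitotic members, which are the 21 genes of the mitotic cyclins, kinases, centromere and spindle with Mki67 and Top2a, showed how mice differed within a group. In microglia it was 48.6 and 32.8 CPM in amyloid-free Cre-negative mice and 73.4 and 88.7 CPM in amyloid-free Cre-positive mice. In Cre-negative APPPS1 mice it was 194, 163, 67.4, 311 and 239 CPM, and in Cre-positive APPPS1 mice 212, 220, 205 and 400 CPM. The value of 67.4 CPM, from mouse 469, was within the amyloid-free range, and the other 8 APPPS1 libraries were above it. Mouse 469 was the lowest of the 9 APPPS1 libraries in 22 of the 23 genes, as in 17.4% of all genes tested, and mouse 475 the highest in 17, as in 9.27% of all genes. Cst7, a gene that microglia switch on near plaques, was 252 CPM in mouse 469, at least 662 CPM in the other APPPS1 libraries and at most 12.3 CPM in the amyloid-free ones. The summed level of the 10 replication members was 296 and 268 CPM in the Cre-negative and 246 and 190 CPM in the Cre-positive controls. In APPPS1 microglia it was 424 ± 103 CPM (SD, n = 5) without and 453 ± 84.7 CPM (n = 4) with Cre, and mouse 469, at 353 CPM, was above all 4 controls.

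**Figure D3:**
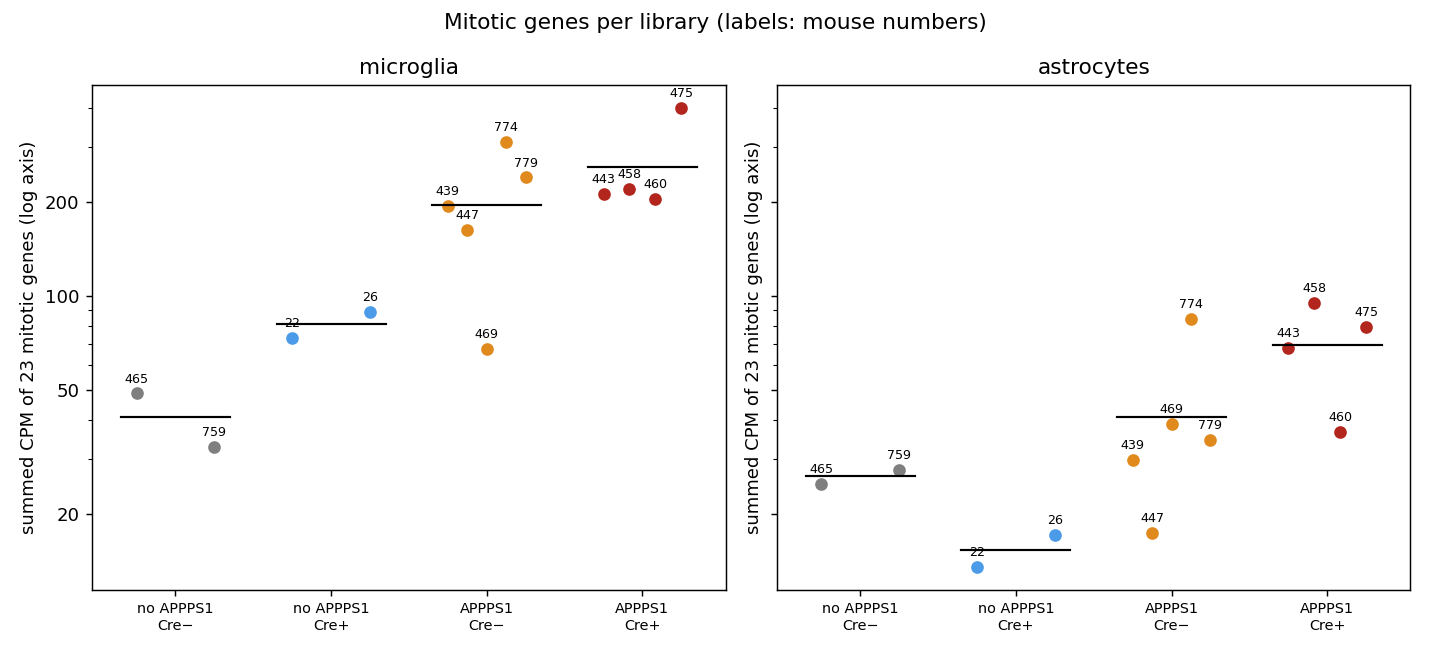
Summed level of the 23 mitotic genes in each library, in CPM on a log axis, in microglia and astrocytes, by genotype group, with mouse numbers beside the points and a line at each group mean. Microglia of 8 APPPS1 mice lie between 163 and 400 CPM and that of mouse 469 at 67.4 CPM, while astrocyte libraries lie between 13.5 and 94.97 CPM.

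The amyloid comparison was also made within each Cre status, where counts with a mouse left out again come without a share of all genes. Among Cre-negative mice, 3 genes passed, Cenpe (log2 3.74 ± 0.63, edgeR adjusted p = 0.0248), Mki67 (2.80 ± 0.54, 0.0432) and Top2a (2.58 ± 0.50, 0.0459), all higher, as were 0.279% of all genes tested, and 0 were lower (0.0341% of all genes). At an unadjusted p under 0.05, 29 of the 40 were higher (6.87% of all genes). The median was 1.92, and without mouse 469 17 genes passed, while without mouse 465 or 759, which leaves 1 control assumed to vary like the other groups, 0 did. It was 1 without any of mice 443, 447, 458, 460, 774 and 779. Among Cre-positive mice, 14 genes were higher (3.65% of all genes tested) and Cdkn1b was lower (3.39%). The higher ones were Ccne2, Mcm3, Mcm5, Mcm6, Rrm1, Rrm2, Tyms, Ccnb1, Cdk1, Aurkb, Nusap1, Prc1, Top2a and Stmn1. The count of called genes in this comparison was 25 without mouse 469, 2 without mouse 475 and 0 without mouse 26 or mouse 458.

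Mki67 and Cenpe had the widest gaps between the control groups. Mki67 was 1.43 and 0.894 CPM in Cre-negative and 5.45 and 9.47 CPM in Cre-positive amyloid-free microglia, against 4.79 to 14.3 CPM and 7.32 to 19.7 CPM in the APPPS1 groups. The Cre-positive controls thus lay within the range of the APPPS1 libraries. Comparing Cre-positive with Cre-negative amyloid-free microglia, 0 of the 40 genes passed by edgeR, as 0.0114% of all genes did, and 7 had an unadjusted p under 0.05 (14.8% of all genes). Mki67 (log2 2.67 ± 0.58, edgeR adjusted p = 0.173), Kif23 (1.91 ± 0.46), Cenpe (2.07 ± 0.65), Cdkn1b (1.27 ± 0.43), Ccnb2 (1.58 ± 0.62) and Tpx2 (1.74 ± 0.79) were higher, and Tyms (-0.85 ± 0.33) was lower. By DESeq2, 3 of the 40 passed, as did 2.23% of all genes. These are 2 mice against 2, and the library of mouse 26 is the one with the low sum of microglial markers.

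Among APPPS1 microglia, Cre status, and with it the lower level of human APOE in astrocytes, was not followed by a change in any of the 40 genes that passed the test. By edgeR 0 passed (0.00568% of all genes), 0 had an unadjusted p under 0.05 (3.5% of all genes), and 0 passed by DESeq2 (0.0219% of all genes). The estimates were above 0 in 33 of the 40, with a median of 0.30, as were 48% of all genes. Cdk1 differed by 1.31-fold (95% interval 0.795 to 2.17), Top2a by 1.43-fold (0.861 to 2.36) and Stmn1 by 1.395-fold (0.965 to 2.02). These intervals include no difference and reach 2.36-fold, so the test does not show that levels were equal. The difference between the Cre effects with and without amyloid passed in 0 of the 40 by edgeR (0% of all genes) and by DESeq2 (0.306%), with 5 at an unadjusted p under 0.05 by edgeR (8.68% of all genes).

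In astrocytes several mitotic genes were near the limit of detection. Cdk1 was 0.0480, 1.08, 0 and 0.0460 CPM in the amyloid-free libraries and at most 2.12 CPM in Cre-negative and 4.74 CPM in Cre-positive APPPS1 libraries, where 2 of the 5 Cre-negative ones held 0 counts. Mki67 was 0.0480 and 0.101 CPM in amyloid-free Cre-negative astrocytes, 0 in both Cre-positive ones, 0, 0, 0.947, 1.60 and 0.408 CPM in Cre-negative APPPS1 astrocytes, and 3.68, 4.81, 2.25 and 0.362 CPM in Cre-positive APPPS1 astrocytes. Top2a was 0.288, 1.33, 0 and 0.414 CPM without amyloid and ran from 0.453 to 9.01 CPM, with a median of 3.27, with it. The APPPS1 and amyloid-free libraries overlapped for all 3 genes. Against the limit that 0 counts allow, taken as 3 counts over the group, the mean Mki67 level was at least 74.0-fold higher in Cre-positive APPPS1 than in Cre-positive amyloid-free astrocytes. That limit covers counting error only and not the spread between mice, from 0.362 to 4.81 CPM in this APPPS1 group. By edgeR, Mki67 did not pass in this comparison.

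For amyloid averaged over Cre in astrocytes, 0 of the 40 genes passed, as did 0% of the 20052 genes tested by edgeR. Of the 40, 17 had an unadjusted p under 0.05, all higher, as did 5.2% of all genes, and 7 passed by DESeq2, as did 1.55% of all genes. The median log2 fold change was 0.97, against 0.04 for all genes. In 0 of the 40 did every APPPS1 astrocyte library lie above every amyloid-free one (0.0549% of all genes), and in 0 below (0.0848%). Ccnb1 (4.05 ± 1.23, edgeR adjusted p = 0.414) was 0.0480, 0.226, 0.0274 and 0.598 CPM without amyloid and ran from 0.131 to 7.87 CPM with it. Stmn1 was at -0.02 ± 0.30 and Pcna at -0.08 ± 0.14. Within Cre-negative astrocytes 0 of the 40 passed by edgeR (0% of all genes) or DESeq2 (0.0814%), with 1 higher at an unadjusted p under 0.05 (2.44% of all genes). Within Cre-positive astrocytes 0 passed by edgeR (0.578% of all genes higher and 0.0848% lower), with 17 higher at an unadjusted p under 0.05 (7.4% of all genes) and 13 passing by DESeq2 (5.01% of all genes). For Cre, 0 of the 40 passed by edgeR in APPPS1 astrocytes (0.00997% of all genes), in amyloid-free astrocytes (0.204%) and for the difference between these effects (0.155%), with 0, 4 and 4 passing by DESeq2, against 0.25%, 5.93% and 3.38% of all genes. At an unadjusted p under 0.05 these counts were 1, 6 and 8, against 6.7%, 12.9% and 11.4% of all genes.

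**Figure D4:**
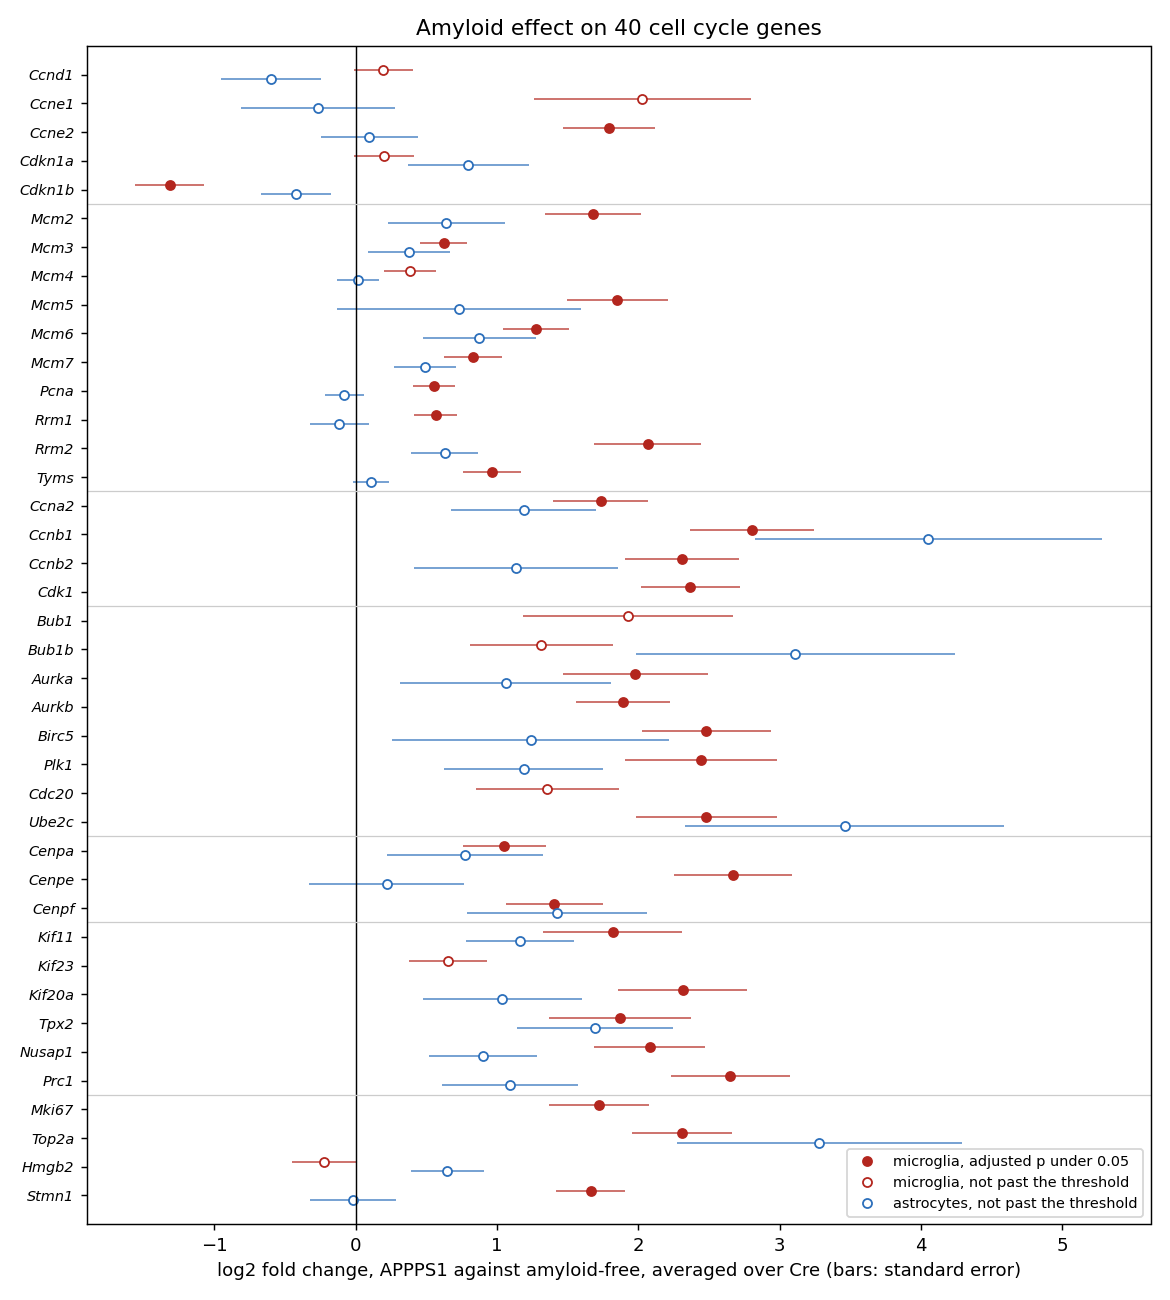
Log2 fold change of APPPS1 against amyloid-free libraries, averaged over Cre, for the 40 genes in microglia (red) and astrocytes (blue), with standard errors as bars, filled points past an adjusted p under 0.05, and gray lines between roles. Astrocyte estimates are left out for 6 genes with 3 counts or fewer over the Cre-positive amyloid-free astrocyte libraries. In microglia 31 points are filled, in astrocytes none is, and for Stmn1 the microglial estimate of 1.66 stands apart from the astrocyte estimate of -0.02.

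The summed mitotic level in astrocytes ran from 13.5 to 27.7 CPM without amyloid and from 17.3 to 94.97 CPM with it. Its 4 highest values were 94.97 CPM in mouse 458, 84.4 CPM in mouse 774, 79.4 CPM in mouse 475 and 67.9 CPM in mouse 443. Mouse 774 and mouse 475 also had the highest sums in microglia. Microglial markers summed to 94.6 to 143 CPM in amyloid-free and 98.3 to 140 CPM in APPPS1 astrocyte libraries, and markers of oligodendrocyte precursors to 26.1 to 120 CPM and 25.4 to 73.5 CPM. Endothelial sums had a median of 201 CPM in amyloid-free and 569 CPM in APPPS1 astrocyte libraries. Their ranges overlapped, and the lowest sums, 72.3 and 102 CPM, were in the Cre-positive amyloid-free libraries. Medians were also higher with amyloid for pericyte and smooth muscle (400 and 798 CPM) and ependymal and choroid plexus markers (230 and 389 CPM). So were those of oligodendrocyte (6160 and 8565 CPM) and oligodendrocyte precursor markers (42.4 and 59.1 CPM). Medians were lower for neuron (58.5 and 45.5 CPM) and neural progenitor markers (196 and 177 CPM). The precursor sum was 71.0, 73.5, 59.1 and 63.4 CPM in mice 458, 774, 475 and 443. It was 32.9 and 25.4 CPM in APPPS1 mice 447 and 460. Mouse 439 had 64.0 CPM with a mitotic sum of 29.7 CPM, and amyloid-free mouse 759 had 120 CPM with 27.7 CPM. Markers of monocytes and neutrophils summed to 369 CPM in the astrocyte library of mouse 774 and to at most 5.06 CPM in the others. With microglial, oligodendrocyte precursor and endothelial markers as a covariate, 0% of all genes passed for amyloid averaged over Cre by edgeR. The same held with the monocyte and neutrophil markers. The fit without a covariate also called 0%, so these fits cannot show the part of these cells. Within Cre-positive astrocytes 0.224% and 0.489% of all genes passed with these covariates, against 0.663% without. The part of pericytes, smooth muscle, ependymal cells and oligodendrocytes was not tested. Without mouse 774, 0 of the 40 genes passed for amyloid averaged over Cre by edgeR. The fit with mouse 774 also called 0, so leaving it out cannot show the part of that library.

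Between the sorts, 34 of the 40 genes were higher in microglia and 2 lower by edgeR over 21612 genes, of which 35.4% were higher and 41.1% lower. The median difference was log2 2.04, against -0.18 for all genes. Mki67 (5.71 ± 0.77), Cdk1 (5.14 ± 0.74), Kif23 (4.78 ± 0.92) and Aurkb (4.33 ± 0.73) had the largest estimates. Each is among the 6 genes with 3 counts or fewer over the 2 Cre-positive amyloid-free astrocyte libraries. The size of these estimates, and so their rank, rests on astrocyte counts near the limit of detection. Stmn1 (-1.35 ± 0.22) and Ccne1 (-1.24 ± 0.48) were higher in astrocytes, and Ccne2, Cdkn1b, Mcm4 and Rrm2 did not pass. With the mouse as a replicate block, Cdkn1b passed (0.41 ± 0.16, edgeR adjusted p = 0.0354) and Aurka, which had passed (1.05 ± 0.46, 0.0432), did not (1.01 ± 0.47, 0.0678). Stmn1 ran from 75.5 to 357 CPM in astrocytes and from 20.1 to 123 CPM in microglia, and astrocytes also had Cdkn1b at 68.0 to 258 CPM.

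The amyloid effect itself differed between the sorts in 1 of the 40 genes. Stmn1 rose more in microglia by log2 1.71 ± 0.43 (edgeR adjusted p = 0.0414), as 0.773% of all genes did, and 0 of the 40 passed in the other direction (0.731%). With the mouse as a replicate block, since both sorts of a number are from the same animal, 0 of the 40 passed. In amyloid-free astrocytes Stmn1 was 135 and 357 CPM without Cre and 80.1 and 103 CPM with it. The replicate block and leaving out a mouse change the power of the test for every gene. Counts from those fits come without a share of all genes and need not be particular to the 40. Without mouse 469 the count was 5 genes, and it was 0 without any one of mice 26, 443, 447, 458, 460, 465, 475, 759, 774 and 779. For the other 39 genes the larger rise in microglia or in astrocytes did not pass the test of the difference, among them Cenpe (2.501 ± 0.69, edgeR adjusted p = 0.0709) and Ccne2 (1.73 ± 0.48, 0.0747).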

How the data were processed

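The authors deposited raw counts per gene for 28 libraries in one table of mouse and human genes. Per the submitters' processing notes, reads were handled with bcl2fastq, STAR and featureCounts of Subread on GRCm38 and GRCh38. Settings, annotation and strandedness are not given in the sources used here. Libraries were made from total RNA with a SMARTer kit, per the labels' protocols. Of 40757 mouse rows, 276 duplicates were dropped, and human rows were left out of library sizes and tests.

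Tests on the deposited counts used the quasi-likelihood F test of edgeR 4.0.16 (R 4.3.3, filterByExpr by group, TMM), in one fit of 13 libraries per sort and one fit of 26 for comparisons between sorts, 14 comparisons in all. The Benjamini-Hochberg adjustment covered every gene in a fit, with a threshold of 0.05. Levels of the 40 genes, their sums and Cst7 are TMM-scaled CPM of the sort's own fit. Marker sums, human APOE and the libraries of mouse 459 are CPM of the total mouse gene counts, without TMM. SE is the absolute log2 fold change over the square root of F. Intervals are 95%. The 36 pairs of libraries within a group had a chi-square of at least 39.5 per degree of freedom, so none was a repeat deposit of the same library. Counting limits cover counting error only. DESeq2 1.42.0, RLE scaling, no filter, marker covariates, fits of only the compared groups, each mouse left out and mouse 459 kept were the alternatives. Both sorts of a mouse share an animal, which gives the pairing. Their deviations from group means correlated at -0.0545 to 0.155, with a median of 0.0106 over 13 mice. The scripts were tested on simulated data.

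Members, lists, tests and named genes were chosen with earlier results of these data known. Values per library are given for the 2 genes of lowest p in each role and for Cdkn1a, Cdkn1b and Ccnd1, and up to 3 genes of lowest p are named per pathway list. Mki67 was added after its values were seen. Of 12 marker lists, the values are given for those that bear on a result, and promoters are from RefSeq (GRCm38.p6), with gene positions from GENCODE M21.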

Additional observations from a re-analysis of the deposited data

Results flagged for a closer look

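In microglia of Cre-positive APPPS1 mice, mouse 475 stood apart from the other 3 in 5 genes by a gap of more than 0.829 of the group's range (Dixon's 95% critical value for 4 samples). It had Rrm2 at 42.4 CPM, Cdk1 at 35.7 CPM, Birc5 at 24.0 CPM, Cenpe at 10.5 CPM and Nusap1 at 21.1 CPM, the highest value of its group in each. In Cre-negative APPPS1 microglia, mouse 439 stood apart with Cdkn1a at 126.62 CPM. In astrocytes, mouse 469 stood apart low with Cdkn1b at 144.16 CPM, and mouse 443 high with Ccnd1 at 10.8 CPM. Chance flags about 1 in 20 groups.

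Stmn1 was flagged because the amyloid effect differed between the sorts, by log2 1.71 (edgeR adjusted p = 0.0414). With the mouse as a replicate block it did not pass (log2 1.66 ± 0.39, edgeR adjusted p = 0.095).

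The libraries of mouse 459, used in no comparison, held a summed mitotic level of 31.5 CPM in the library labelled microglia and 231 CPM in that labelled astrocyte. The first had the astrocyte gene Gja1 at 6980 CPM, and the second had P2ry12 at 7290 CPM. By sum, the library labelled astrocyte, without TMM scaling, fell within the TMM-scaled range of the 9 APPPS1 microglia libraries, 67.4 to 400 CPM.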

How the results depend on the processing

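For amyloid averaged over Cre in microglia, 31 of the 40 genes were called. The count was 34 with DESeq2 (16.8% of all genes), 31 with RLE scaling, 34 without a filter, 14 to 33 when a mouse was left out, 11 with the monocyte and neutrophil covariate, 0 with the other-cell covariate and 1 with mouse 459 as labelled. In Cre-negative mice the 3 calls became 24 with DESeq2 (3.08%), 19 without a filter, 1 with either covariate, and 0 in a fit of the compared groups or with mouse 459, and ran from 0 to 17 when a mouse was left out. In Cre-positive mice the 15 calls became 28 with DESeq2 (15.5%), 27 without a filter, 23 in a fit of the compared groups, and 0 with either covariate or mouse 459, and ran from 0 to 25 when a mouse was left out. For Cre in amyloid-free microglia, 0 calls became 3 with DESeq2 and 2 without a filter, and ran from 0 to 3 when a mouse was left out (3 without mouse 22). In astrocytes DESeq2 called 7 genes for amyloid averaged over Cre, 13 in Cre-positive mice, 4 for Cre without amyloid and 4 for the difference between Cre effects, where edgeR called 0. For amyloid in Cre-negative microglia, 0.233% of all genes passed with the other-cell covariate and 0.21% with the monocyte and neutrophil covariate. In Cre-positive microglia these shares were 0% and 0.0398%. Every alternative also changes the power of the test for all genes, so counts given without a share of all genes need not be particular to the 40. The cause of these changes was not tested.

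Between the sorts, 36 calls ran from 33 to 37 when a mouse was left out and numbered 36 with the replicate block, with Cdkn1b gained (adjusted p = 0.0354) and Aurka lost (0.0678). For the amyloid effect between the sorts, 1 call became 7 with DESeq2 (7.09%) and 0 with the replicate block or with mouse 459, and ran from 0 to 5 when a mouse was left out. In microglia the sign of an uncalled estimate turned for Cdkn1a (-0.27) with the other-cell covariate, for Ccnd1 (-0.33) and Hmgb2 (0.14) with the monocyte and neutrophil covariate, and for Hmgb2 when a mouse was left out (from -0.44 to 0.23, the latter without mouse 26). In astrocytes 6 genes had 3 counts or fewer over the 2 Cre-positive amyloid-free libraries, and 4 amyloid-free mice per sort entered the amyloid comparisons.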
